A study of Mus musculus with 4 samples.

Results

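Intron clusters near splice sites are the read clusters of the IGF2BP3 eCLIP-seq data that lie in the first or last stretch of an intron. A cluster is a stretch of the genome where sequenced fragments pile up. A cluster was taken when its centre lay inside a protein-coding gene on the same strand, in no exon of any GENCODE M21 basic transcript on that strand, and at most 100 bases from an exon edge of that gene. The rule found 7352 of 337234 clusters in replicate 1 and 3981 of 216354 in replicate 2, or 2.18% and 1.84%. By the nearest edge, 3289 and 1782 lay on the 5′ splice site side, just after an exon, and 3709 and 1989 lay on the 3′ splice site side, just before one. The nearest edge of the remaining 354 and 210 was the start or end of a transcript and not a splice site.

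The samples were testes of wild-type C57BL/6 mice aged 8 weeks, holding germ cells and somatic cells, and the dissociated tissue was crosslinked 3 times with UV light of 254 nm at 400 mJ/cm2. Each of 2 replicates has 1 IP library, made with an IGF2BP3 antibody, and 1 SMInput library, the RNA of the same lysate and size range without the antibody, so there are 4 samples. IgG libraries were not analysed here. The libraries held 5133438 IP and 8706391 SMInput reads in replicate 1 and 4637612 and 16696122 in replicate 2, as recovered from the listed values. For each cluster the deposited tables give the log2 fold change of IP over SMInput and the −log10 P value of that comparison within 1 replicate. A cluster is called here when both values are at least 2.

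IGF2BP3 is an RNA-binding protein with RNA recognition motifs and KH domains, known for binding mature mRNA in the cytoplasm. Introns are present in RNA that has not been spliced and in transcripts that keep them. The start of an intron, usually GT, is recognised by the U1 small nuclear ribonucleoprotein. At its end, U2AF binds a stretch of C and T before a closing AG.

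Few clusters near splice sites were called, and over all read numbers their shares were below that of all clusters and near those of other intron clusters. On the 5′ side, 71 of 3289 were called in replicate 1 (2.16%, 95% Wilson interval 1.72 to 2.71) and 195 of 1782 in replicate 2 (10.9%, 9.58 to 12.5). The 3′ side had 71 of 3709 (1.91%, 1.52 to 2.41) and 182 of 1989 (9.15%, 7.96 to 10.5). The background, the share called among all clusters of the table, was 4.92% in replicate 1 and 13.2% in replicate 2, so both sides were below it in both replicates, although not within every class of read number. Among intron clusters farther than 100 bases from any edge, called deep intron clusters below, 1.93% and 10.8% were called, and only the 3′ side of replicate 2 had an interval below that share. The means of the 2 replicates were 6.55% ± 6.21 (SD, n = 2) on the 5′ side and 5.53% ± 5.12 on the 3′ side. In each replicate the 5′ share was the higher one, with overlapping intervals, and the difference between the sides was not tested. Clusters are not replicates of a condition, so no test was made across them and these shares are a description. The intervals cover counting error only.

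Exon clusters within 100 bases of a splice site were called at 4.41% in replicate 1 and 6.88% in replicate 2. The intron sides were therefore below these exon clusters in replicate 1 and above them in replicate 2, before read numbers were taken into account. Exon clusters farther from splice sites reached 16.0% and 28.1%. Called clusters were thus most frequent in exon sequence far from splice sites in both replicates, and both sides of the splice site held a smaller share of them.

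The members rest on few reads. The median member held 4 IP reads on either side in both replicates. The median SMInput number was 2 in replicate 1 on both sides. In replicate 2 it was 3 on the 5′ side and 4 on the 3′ side. When SMInput has 1 read, 7 IP reads are the fewest that can give a call in replicate 1, and 4 in replicate 2. Members with 4 to 6 IP reads could therefore be called only in replicate 2. Among 5′ members with 1 to 4 IP reads, 0 of 2073 were called in replicate 1 and 70 of 1178 (5.94%) in replicate 2. With as many reads in replicate 2, 5.71% of deep intron clusters, 4.92% of all clusters and 65 of 1203 (5.40%) on the 3′ side were called. Among 5′ members with 5 to 9 IP reads, the shares were 6.11% and 24.0%, beside 5.74% and 26.6% of deep intron clusters. The 3′ side gave 4.17% and 19.3% in the same class. All clusters of this class were called at 5.48% and 20.8% and exon clusters near splice sites at 2.65% and 8.56%, so both sides were above those exon clusters. The 5′ side was above all clusters and the 3′ side below them. However, the intervals of the 5′ side (4.70 to 7.91 and 20.2 to 28.3) and 3′ side (3.10 to 5.58 and 16.2 to 22.8) held the share of all clusters. At 10 to 19 IP reads, 13 of 95 and 17 of 74 members of the 5′ side were called (13.7% and 23.0%), beside 29.9% and 22.7% of deep intron clusters. For the 3′ side these were 28 of 157 and 10 of 93 (17.8% and 10.8%). All clusters with 10 to 19 IP reads were called at 22.1% and 23.6%, and exon clusters near splice sites at 11.7% and 11.5%. In this class the intervals of the 3′ side lay below those of deep introns in both replicates (12.6 to 24.6 and 5.95 to 18.7, beside 28.3 to 31.5 and 20.8 to 24.7), and that of the 5′ side in replicate 1 alone. At 20 IP reads or more, 5 of 14 and 4 of 9 members of the 5′ side were called, and 1 of 20 and 2 of 22 of the 3′ side, beside 23.0% and 25.7% of deep intron clusters and 29.3% and 33.5% of all clusters.

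Of the called members, 29 of 71 on the 5′ side and 31 of 71 on the 3′ side had a single SMInput read in replicate 1. In replicate 2 these were 96 of 195 and 93 of 182. A listed number of 1 may stand for 0, so the fold changes of these clusters are the least certain. The median log2 fold change of all members was 1.76 and 1.85 on the 5′ side and 1.57 and 1.76 on the 3′ side. Such medians come largely from clusters with few reads: with at least 10 IP reads they were 1.05 and 1.08 on the 5′ side and 1.11 and 0.85 on the 3′ side. Below 0, where SMInput exceeded IP, lay 5.41% and 4.10% of 5′ members and 7.71% and 5.43% of 3′ members, beside 3.48% and 2.51% of deep intron clusters and 16289 of 81496 and 9391 of 67480 exon clusters next to splice sites.

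Clusters near splice sites were about as dense as in the rest of the intron. The intron bases within reach came to 18.1 megabases on the 5′ side, 17.9 on the 3′ side and 936 in deep introns, counted by strand. There were 182 and 98.4 clusters per megabase on the 5′ side, 207 and 111 on the 3′ side, and 195 and 101.1 in deep introns in replicates 1 and 2. Members with no base in an exon came to 156 and 82.8 on the 5′ side and 157 and 76.7 on the 3′ side, over the same bases. A cluster centred close to the edge can seldom be clear of the exon. These values are therefore low by construction and cannot be set against deep introns. Called clusters came to 3.92 and 10.8 per megabase on the 5′ side, 3.97 and 10.2 on the 3′ side, and 3.75 and 10.9 in deep introns. Of 198463 annotated 5′ splice sites, 2783 had a member in replicate 1 and 1637 in replicate 2. Of 196576 annotated 3′ splice sites, 3218 and 1850 had one.

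The sides differed in where the members lay. On the 5′ side clusters were sparse close to the exon. The density was 119 and 80.3 per megabase in the 10 bases next to the exon and 97.1 and 47.5 at 11 to 20 bases. At 81 to 90 bases into the intron it was 256 and 123. For the 3′ side the 10 bases next to the exon were the fullest step, with 477 and 314 clusters, or 252 and 166 per megabase. At 91 to 100 bases before the exon the density was 195 and 95.1. The fold change was lowest next to the exon on both sides, where most members crossed into it. In those 10 bases 94.7% and 94.8% of members on the 5′ side and 92.2% and 96.2% on the 3′ side held exon bases. The values there are therefore not of intron sequence alone. The median log2 fold change was 1.18 and 1.04 in the 10 bases next to the exon and 1.76 and 2.26 at 91 to 100 bases on the 5′ side, and 0.98 and 1.04, then 2.35 and 2.43, on the 3′ side. The steps between did not rise evenly on the 5′ side, where the median of replicate 2 was 2.26 at 31 to 40 bases and 1.85 at 71 to 80.

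In replicate 2 the share called was also lower next to the exon. Within 20 bases of the exon, 12 of 245 members of the 5′ side (4.90%, 2.82 to 8.36) and 22 of 519 of the 3′ side (4.24%, 2.82 to 6.33) were called. At 81 to 100 bases, 61 of 414 (14.7%, 11.6 to 18.5) and 45 of 319 (14.1%, 10.7 to 18.4) were. In replicate 1 the shares were 1.69% and 2.63% on the 5′ side and 2.31% and 2.79% on the 3′ side, with overlapping intervals. In none of the 4 sets was the share within 20 bases above that at 81 to 100 bases. Of the members within 20 bases, 82.1% and 84.9% on the 5′ side and 80.8% and 88.6% on the 3′ side held exon bases.

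Many members close to the exon reached into it. At least 1 base lay in an exon for 459 of 3289 and 282 of 1782 members of the 5′ side, and for 896 of 3709 and 617 of 1989 of the 3′ side (24.2% and 31.0%). Through clusters that touch end to end, 18.2% and 18.7% of the 5′ side and 29.8% and 34.0% of the 3′ side were joined to exon bases. Of the crossing members, 7 and 19 were called on the 5′ side (1.53% and 6.74%) and 24 and 34 on the 3′ side (2.68% and 5.51%). Of the members clear of exons, 2.26% and 11.7% were called on the 5′ side and 1.67% and 10.8% on the 3′ side. In replicate 2 the clear members thus had the larger share on both sides, and in replicate 1 only on the 5′ side.

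The exon beside a member seldom held a called cluster, and often held no cluster. It held any cluster for 53.5% and 49.2% of called 5′ members, against 47.1% and 41.8% of those not called. For the 3′ side these shares were 59.2% and 54.4%, against 47.7% and 39.1%. No share over all exons is given for comparison. Among called members of the 5′ side, 3 of 71 and 11 of 195 bordered an exon that held a called cluster (4.23% and 5.64%), against 2.27% and 2.71% of members not called. The 3′ side had 6 of 71 and 20 of 182 (8.45% and 10.99%), against 3.30% and 3.76%. The shares beside called members were higher on both sides in both replicates, and the 95% intervals were apart for the 3′ side in replicate 2 (7.23 to 16.4 against 2.98 to 4.74). They were barely apart for the 3′ side in replicate 1 (3.931 to 17.2 against 2.77 to 3.930) and overlapped for the 5′ side. Neighbouring clusters share a gene and its RNA level, which was not tested.

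The replicates had few members in common. Of the 5′ members, 324 of 3289 in replicate 1 overlapped any cluster of replicate 2 (9.85%), and 301 of 1782 in replicate 2 any cluster of replicate 1 (16.9%). The shares for the 3′ side were 12.4% and 21.1%. Deep intron clusters overlapped at 6.87% and 12.8%, exon clusters near splice sites at 54.2% and 62.9%, and all clusters at 24.9% and 37.3%. Over the overlapping pairs the log2 fold changes of the replicates correlated with Pearson's r = 0.60 and Spearman's rho = 0.59 on the 5′ side (337 pairs), and 0.55 and 0.52 on the 3′ side (487 pairs). These values are descriptions across clusters, which share libraries and, often, genes.

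Where a called member met a cluster of the other replicate, the highest log2 fold change among the clusters it met was above 0. For each member, called or not, only that highest value was taken, so the values below lean upward where a member met more than 1 cluster. All 12 called 5′ members of replicate 1 with an overlap had a log2 fold change above 0 in replicate 2, with a median of 1.58. For the members not called, 267 of 312 did, with a median of 1.04. In the other direction it was 27 of 27, with a median of 1.76, against 215 of 274 and 0.76. For the 3′ side it was 17 of 17 and 15 of 15, against 377 of 444 and 304 of 405 members not called. Enrichment in one replicate thus went with enrichment in the other, for the minority of called members that had an overlap. In deep introns 466 of 475 called clusters of replicate 1 and 1003 of 1031 of replicate 2 met a cluster above 0, against 11058 of 12052 and 9483 of 11112 not called.

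Called in both replicates were 5 members of replicate 1 on the 5′ side, 7.04% of its called members there, and 4 on the 3′ side, 5.63%. From replicate 2 the counts were 7 of 195 and 4 of 182 (3.59% and 2.20%). Over all clusters, 5478 of replicate 1 were called and met a called cluster, 1.62% of the table and 33.0% of its called clusters. From replicate 2 it was 5269, which is 2.44% of the table and 18.5% of the called clusters. For deep introns the shares of the called were 3.81% and 1.26%. Called members near splice sites therefore recurred less often than called clusters in general, on counts of 4 to 7. The replicate 1 count of the 3′ side includes a cluster of Mroh8 that met an exon cluster, and the replicate 2 counts include clusters of Wdr26 and Slc2a5 that met exon clusters.

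At 8 exon edges in 8 genes a called member of the same side was found in both replicates, so no gene had more than 1 such edge. The 5 on the 5′ side were in Prr19, Dmrtb1, Slc2a5, Mroh4 and Rangap1, and the 3 on the 3′ side in Dnajc19, Dvl3 and Gpat2. None of these genes belongs to the lists of chromatin, splicing, dynein, meiosis or spermatid genes used here.

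The largest fold changes of these 5 edges were in Prr19, a gene known for a part in crossover formation in meiosis. Its clusters lay in intron 1 of 2, at chr7:25301526-25301570 (mm10, plus strand) in replicate 1 and chr7:25301539-25301580 in replicate 2. They held 27 IP and 2 SMInput reads, then 24 and 3, for log2 fold changes of 4.52 and 4.85 and −log10 P values of 9.41 and 12.7. Their centres were 74 and 86 bases from exon 1, which had no cluster in either replicate. RefSeq lists predicted exons from 25301484 to 25301999 and to 25302003 over this place, so it is an intron in GENCODE but an exon in the predicted RefSeq models.

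Dmrtb1, a DM-domain transcription factor of spermatogonia, had the most IP reads of the called members of replicate 1. The cluster in intron 1 of 3, at chr4:107683466-107683553 (minus strand), held 112 IP and 18 SMInput reads, with a log2 fold change of 3.40 and a −log10 P of 29.8. In replicate 2, chr4:107683487-107683541 held 76 and 24 reads, with values of 3.51 and 38.1. Another 12-base cluster beside it, at chr4:107683542-107683553, held 34 and 9 reads and had a log2 fold change of 3.77. A curated RefSeq exon and an exon of a coding GENCODE transcript outside the basic set both run to base 107683466, the last base of the replicate 1 cluster. The next cluster of replicate 2, chr4:107683465-107683486, ended 1 base past it, with 64 and 23 reads and a log2 fold change of 3.32, and its centre lay 104 bases from the edge, outside the limit. The called clusters of Dmrtb1 thus lay, but for that base, within an exon of those other transcripts.

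In Slc2a5, which encodes a fructose transporter, the member filled much of an intron of only 104 bases, intron 1 of 13. The cluster at chr4:150119566-150119618 (plus strand) held 65 IP and 13 SMInput reads in replicate 1, and chr4:150119565-150119621 held 83 and 39 in replicate 2. The log2 fold changes were 3.08 and 2.94 and the −log10 P values 16.1 and 34.0. The exons on both sides were called as well. In replicate 1, the cluster that leaves the upstream exon had a log2 fold change of 2.36 with 121 IP reads, and the one that enters the downstream exon 2.13 with 67. In replicate 2 the next cluster, chr4:150119622-150119659, crossed the 3′ splice site with 64 IP and 33 SMInput reads and a log2 fold change of 2.80. The downstream exon held 4 clusters in replicate 2, of which 1 was called. In replicate 1 the called clusters ran from the upstream exon through the intron into the downstream exon without a break.

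The 2 other edges of the 5′ side had fewer reads. Mroh4, of the maestro heat-like repeat family, had 10 IP and 3 SMInput reads at chr15:74624602-74624636 (minus strand, intron 11 of 26) and 12 and 7 at chr15:74624572-74624614, for log2 fold changes of 2.50 and 2.63. The −log10 P values were 2.18 and 3.93, and the clusters shared 13 bases. Rangap1, the GTPase-activating protein of Ran, had 8 and 2 reads at chr15:81724415-81724461 (minus strand, intron 2 of 15) and 8 and 7 at chr15:81724412-81724462. Its log2 fold changes were 2.76 and 2.04, and its −log10 P values, both 2.14, were just past the threshold. In both genes the adjoining exon held clusters but no called one in either replicate. With a Benjamini-Hochberg adjusted P of at most 0.05, neither Mroh4 nor Rangap1 was called in both replicates. Mroh4 was also lost when a longer overlap was required, and Rangap1 with at least 10 IP reads.

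Among the 3 edges of the 3′ side, Dnajc19, a DnaJ protein of the mitochondrial inner membrane, had the largest fold change. In intron 4 of 5, which is 359 bases long, chr3:34078864-34078998 (minus strand) held 17 IP reads against 1 in replicate 1, with a log2 fold change of 4.85 and a −log10 P of 6.25. In replicate 2, chr3:34078870-34078919 held 5 and 2 reads, with 3.17 and 2.16. The next cluster of replicate 2, chr3:34078920-34079054, lay 142 bases from the exon edge at its centre, outside the limit, and held 14 reads against 1, with a log2 fold change of 5.66. The exon beside it held 1 cluster in each replicate, called in replicate 2. No exon of the transcripts searched, RefSeq's included, covered the cluster of replicate 1.

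Dvl3, a dishevelled protein of Wnt signalling, had 11 IP and 2 SMInput reads at chr16:20532224-20532274 (plus strand) and 15 and 7 at chr16:20532233-20532293, in its last intron, 15 of 15. The log2 fold changes were 3.22 and 2.95 and the −log10 P values 3.21 and 5.40. The cluster of replicate 2 crossed 10 bases into the last exon, which was called in both replicates. A curated RefSeq exon of 2934 bases, from 20531080 to 20534013, runs over the whole of this intron. Gpat2, an acyltransferase gene expressed in testis, had 10 and 2 reads at chr2:127430747-127430790 (plus strand, intron 6 of 21) and 8 and 6 at chr2:127430773-127430805. Its log2 fold changes were 3.08 and 2.26 and its −log10 P values 2.84 and 2.38. No exon of the other transcripts searched covered the Gpat2 cluster, and the exon beside it had no cluster.

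The sequences of the places called in both replicates are shown because they let the splice site and the clusters be seen together. For the 5 genes with no exon of another transcript there, the intron is printed on its own strand from the splice site to the far end of the clusters, or from the far end to the splice site for Dnajc19 and Gpat2. Capitals mark the bases shared by the named member of each replicate. Overlaps with other clusters of either replicate, as at Dnajc19 and Slc2a5, are not marked. Slc2a5 at chr4:150119551-150119621, Mroh4 at chr15:74624572-74624684 and Rangap1 at chr15:81724412-81724485 begin with the first base of the intron, and Dnajc19 at chr3:34078846-34078998 and Gpat2 at chr2:127430747-127430854 end with the last.
Slc2a5: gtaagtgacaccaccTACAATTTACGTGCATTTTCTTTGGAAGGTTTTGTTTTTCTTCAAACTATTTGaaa
Mroh4: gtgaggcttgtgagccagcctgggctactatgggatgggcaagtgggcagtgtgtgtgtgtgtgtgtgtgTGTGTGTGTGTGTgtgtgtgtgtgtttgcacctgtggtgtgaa
Rangap1: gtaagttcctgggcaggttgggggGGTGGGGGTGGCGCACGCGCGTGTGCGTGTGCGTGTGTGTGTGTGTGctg
Dnajc19: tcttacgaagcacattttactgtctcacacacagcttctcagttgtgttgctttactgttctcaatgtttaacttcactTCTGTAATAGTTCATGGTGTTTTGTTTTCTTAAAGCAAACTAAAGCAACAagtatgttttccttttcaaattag
Gpat2: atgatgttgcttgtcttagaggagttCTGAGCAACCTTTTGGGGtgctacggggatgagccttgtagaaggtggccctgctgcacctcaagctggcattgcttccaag

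The 5′ splice sites of Slc2a5 and Rangap1 begin with GTAAG and that of Mroh4 with GTGAG, and none of the shared stretches includes the splice site itself. Mroh4 and Rangap1 both carry a run of TG repeats under the clusters. C and T made up 57.7% of the bases shown for Slc2a5, 60.8% for Dnajc19, 50% for Gpat2, 45.1% for Mroh4 and 41.9% for Rangap1. For the 3 genes with an exon of another transcript at the place, 30 bases from the middle of the shared stretch are given, at chr7:25301540-25301569, chr4:107683500-107683529 and chr16:20532239-20532268. The Dvl3 stretch is 90.0% C and T and holds TTTTT, and those of Prr19 and Dmrtb1 are 60% and 53.3% C and T.
Prr19: CCTTACGCCTGCCCTCAGGAGTGGCCCAGC
Dmrtb1: GCAGCCTCCGGCTCTAAGCTGGAGTCCCAG
Dvl3: TTTTCTTCTTTTTTCTTCCTTCAAATTTCC

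Counting edges by reads rather than by calls leads to other genes. Of the 3 edges per side with the most IP reads in replicate 1 and a cluster in both replicates, Dmrtb1 and Slc2a5 were called and the other 4 were not. Cchcr1, a coiled-coil protein gene, had 54 IP and 69 SMInput reads at chr17:35517273-35517376 in its first intron, and 44 and 142 in replicate 2, with log2 fold changes of 0.41 and 0.16, at a place that RefSeq gives as exon. For the 3′ side, Phospho1, a phosphatase gene, led with 80 and 49 reads at chr11:95830469-95830594 and 59 and 73 in replicate 2. Its log2 fold changes were 1.47 and 1.54, under the threshold, although 7 of 9 and 4 of 4 clusters in the exon it crosses into were called. Rexo1, an RNA exonuclease gene, had 64 and 29 reads at chr10:80546407-80546545 and 31 and 50 in replicate 2, with 1.90 and 1.16, in an intron that an annotated transcript retains. BC051142 had 32 and 53 reads at chr17:34446934-34446978 and log2 fold changes of 0.03 and -0.74. High read numbers near a splice site thus came with a fold change below the threshold at these 4 edges. Part of the sequence was exon for BC051142, with 21 exon bases in each replicate, and for Rexo1 in replicate 1, with 59. With a log2 fold change of 1 as the threshold, Phospho1 and Rexo1 were called in both replicates.

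The splice sites with members resembled all splice sites of protein-coding genes. Introns began with GT at 98.9% and 98.4% of 5′ sites with a member and at 98.6% of all 5′ sites. GTAAG opened 26.3% and 25.3% of them and 28.7% of all, and GTGAG 24.7% and 26.0% beside 25.6%. With a called member, GTAAG was at 21 of 68 sites and 57 of 186 (30.9% and 30.6%). Starts of the U12 type, A or G followed by TATCCTT, were at 15 of 2783 and 2 of 1637 sites with a member (0.539% and 0.122%) and at 0.278% of all. They were at 0 of the 68 and 186 sites with a called member. Introns ended with AG at 99.8% and 99.7% of 3′ sites with a member and 99.6% of all. C and T made up a mean of 74.3% and 74.1% of the last 20 bases before the AG, beside 74.7% at all 3′ sites.

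The members held more G and C and fewer masked repeats than deep introns. G and C made up 50.8% and 50.7% of the 50-base windows at the centres of 5′ members, 46.6% and 46.8% on the 3′ side and 44.4% in deep introns in both replicates. C and T made up 51.3% and 51.8% on the 5′ side and 55.5% and 56.2% on the 3′ side, where the polypyrimidine tract lies, beside 52.6% and 53.97% in deep introns. The centre was in masked repeat sequence for 13.3% and 16.8% of 5′ members and 16.0% and 17.3% of 3′ members, beside 26.7% and 30.9% of deep intron clusters. In G and C and in masked repeats the members lay between deep introns and the exon clusters near splice sites, which had 51.1% and 51.2% G and C and were masked at 3.67% and 3.57%. Windows of members close to the edge hold exon bases. No values over all intron bases near exon edges are given, so these differences cannot be told apart from position.

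Motifs were searched on the strand of the cluster in the same windows. GGAC, the core of many m6A sites, was in 16.1% and 15.5% of 5′ windows and 12.6% and 11.8% of 3′ windows, beside 11.3% and 10.5% in deep introns and 19.1% and 18.8% at exon clusters near splice sites. Among called members it was in 11 of 71 and 34 of 195 windows on the 5′ side (15.5% and 17.4%) and 8 of 71 and 34 of 182 on the 3′ side (11.3% and 18.7%). In replicate 2 the 3′ share was above that of members not called (11.1%), and in replicate 1 it was not (12.6%). ACACA, a CA-rich element of the kind known for IGF2BP proteins, was in 4.20% and 2.75% of 5′ windows and 4.48% and 4.12% of 3′ windows, beside 5.48% and 4.86% in deep introns. Called 3′ members held it in 4 of 71 and 12 of 182 windows (5.63% and 6.59%), against 4.45% and 3.87% of those not called, and called 5′ members in 1 of 71 and 6 of 195, against 4.26% and 2.71%. All 4 pairs of intervals overlapped.

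GAACA and AAACC are motifs of the study. GAACA was in 2.82% and 6.15% of called 5′ members, against 3.05% and 2.58% of those not called, and in 2.82% and 3.30% of called 3′ members, against 3.44% and 3.49%. AAACC was in 1.41% and 3.08% of called 5′ members, against 2.52% and 2.08% of those not called, and in 0 of 71 and 8 of 182 called 3′ members, against 2.97% and 2.71%. Between GAACA and AAACC, the intervals were apart only for GAACA on the 5′ side in replicate 2 (3.55 to 10.4 against 1.91 to 3.49). In 100-base windows GAACA was in 8.45% and 10.8% of called 5′ members, against 7.30% and 6.99%, with overlapping intervals. TTTTT was in 10.7% and 12.5% of 5′ windows, 15.2% and 16.9% of 3′ windows, and 14.8% and 18.9% in deep introns. GTAAG, the 5′ splice site element, was in 6.29% and 7.01% of 5′ windows and 2.45% and 2.26% of 3′ windows. A 5′ window close to the edge can hold the splice site itself. It was in 3 of 71 and 8 of 195 called 5′ members, beside 6.34% and 7.37% of those not called, with overlapping intervals. In 100-base windows the called members of replicate 2 had the higher share (16.9% against 15.3%). A motif in a window is a match of letters and not a bound site.

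Annotated retained introns held more of the members than of the deep intron clusters. An annotated retained-intron transcript outside the basic set covered the centre of 14.1% and 16.1% of 5′ members and 13.8% and 15.5% of 3′ members, beside 3.22% and 3.74% of deep intron clusters. The share of all intron bases near exon edges that such transcripts cover was not counted. These shares therefore cannot be told apart from the position of the members. Among called members these were 10 of 71 and 23 of 195 on the 5′ side (14.1% and 11.8%) and 8 of 71 and 20 of 182 on the 3′ side (11.3% and 10.99%). The share called inside such introns was 2.15% and 8.01% on the 5′ side and 1.56% and 6.47% on the 3′ side, no higher than among all members. RefSeq exons, curated or predicted, covered 7.15% and 9.03% of 5′ members and 4.66% and 6.39% of 3′ members. Among called members the RefSeq share was 9 of 71 and 17 of 195 on the 5′ side and 7 of 71 and 5 of 182 on the 3′ side.

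First introns were more frequent among 5′ members. The member lay in the first intron in 593 of 3289 and 328 of 1782 cases on the 5′ side (18.4% in replicate 2), where 13.4% of all 5′ splice sites belong to a first intron. For the 3′ side it was 11.2% and 10.7%, beside 11.7% of all 3′ sites. Of the called 5′ members, 22 of 71 were in a first intron in replicate 1 (31.0%) and 30 of 195 in replicate 2 (15.4%), so the replicates differed. Last introns held 7.66% and 6.40% of 5′ members and 6.90% and 7.04% of 3′ members, fewer than their 11.3% and 11.8% of all sites. The introns were 1889 and 1691.5 bases long at the median on the 5′ side and 1520 and 1410 on the 3′ side, beside 1361 and 1339 for all splice sites.

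The members were spread over many genes. On the 5′ side 2242 and 1390 genes had a member, 65.7% and 77.8% of them with only 1. The 3′ side had 2483 and 1550 genes, 65.0% and 78.0% with only 1. Clasp1, which encodes a microtubule-binding protein, had the most on the 5′ side in replicate 1, with 7 clusters and 0 called, and Cfap74, of cilia and flagella, in replicate 2, with 6 and 0. For the 3′ side Fer1l5, a ferlin gene, led in replicate 1 with 9 clusters and had 6 in replicate 2, where Cfap65, a flagellar gene, also had 6, and none of these clusters was called. Genes with a called member on either side numbered 134 and 343, and 17 of them were found in both replicates. Over all clusters, 5592 and 7926 genes had a called cluster, and the number common to both is not given here. Of all called clusters, 33.0% and 18.5% met a called cluster of the other replicate. These are shares of clusters and not of genes, so they do not tell whether 17 genes are few.

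Chromatin regulators and meiosis genes had members but no call. The 20 chromatin genes held 23 members in replicate 1 and 11 in replicate 2, and 0 were called. A count of 0 allows shares of up to 13.04% and 27.3%, above the background. The 23 meiosis genes held 24 and 10 members with 0 called. The 22 spermatid genes held 1 and 0 members. These numbers are too small to show a difference from other genes.

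Among 9 genes looked at one by one, none had a called member near a splice site in either replicate. They are the chromatin regulators Dot1l, Hdac11, Chd5 and Smarca2, Bag6 and Prrc2a, and the flagellar genes Cfap65, Dnah2 and Dnhd1. They held 29 and 21 members, so a count of 0 allows shares of up to 10.3% and 14.3%. Their exons held 36 called clusters of 506 in replicate 1 and 23 of 459 in replicate 2, to be read beside the 4.41% and 6.88% called of all exon clusters near splice sites and the 16.0% and 28.1% farther away. For Dot1l, a histone methyltransferase, it was 8 of 51 and 5 of 40, with a single member near a splice site, in replicate 1, at a log2 fold change of 1.35. For Hdac11, a histone deacetylase, it was 7 of 13 and 5 of 11, with no member in either replicate. The highest members of Cfap65, with 6 and 8 of them, were at 1.98 and 1.43. Above the fold threshold, but not past that on P, were members of Chd5 and Dnah2 in replicate 1, both with a highest value of 2.35, and the single member of Smarca2 in replicate 2, at 2.59.

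Splicing factors and dynein heavy chains had few calls, each in a gene called in 1 replicate. The 33 splicing genes held 39 and 29 members, of which 0 and 2 were called. A count of 0 of 39 allows a share of up to 7.69%, and 2 of 29 is 6.90%, beside 10.2% of all members, so neither stands apart from them. The calls were in Srsf11, an SR protein gene (chr3:158021915-158021930, 4 IP reads and 1 SMInput read, log2 fold change 3.85), and U2af2, which encodes a subunit of U2AF (chr7:5067694-5067773, 8 and 3 reads, 3.26). The 16 axonemal dynein heavy chain genes held 62 and 37 members, of which 1 (1.61%) and 3 (8.11%) were called, near the shares of all members. In replicate 1 it was Dnah17 (chr11:118027565-118027622, 8 and 1 reads, 3.76). In replicate 2 they were Dnah7b (chr1:46085775-46085828, 5 and 1 reads, 4.17), Dnah7a (chr1:53456943-53456970, 5 and 1 reads, 4.17) and Dnah1 (chr14:31262595-31262646, 7 and 5 reads, 2.33). No gene of the lists had a member called in both replicates at the thresholds and distance used here. Within 200 bases of the edge Dnah2 had one on the 5′ side, and with a log2 fold change threshold of 1 the splicing gene Srrm2 had one on the 3′ side.

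Markers of the other cells of the testis had few members, as had the 22 spermatid genes with 1 and 0, so the counts do not set these cells apart. The 7 Leydig, 4 peritubular and vascular and 4 macrophage markers had 0 in both replicates. The 10 Sertoli markers had 2 and 1 clusters and the 5 markers of spermatogonia 0 and 2, and none was called.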

How the data were processed

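IGF2BP3 eCLIP-seq of mouse testes was analysed in 2 replicates, each an IP and its SMInput. The authors removed adapters with cutadapt and ribosomal RNA reads with Bowtie2, aligned to mm10 with STAR, collapsed duplicates by molecular identifiers and called clusters with Clipper in each replicate. Per cluster they deposited a P value for IP against SMInput as −log10 (at most 400, and 0 for clusters with a fold change below 0 and some just above it) and a log2 fold change of IP over SMInput, scaled to library totals.

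Exons came from GENCODE M21 basic transcripts, sequence and repeat masking from RefSeq's GRCm38.p6. Distance 1 is the first intron base, and ties went to the 5′ side. Library totals and reads were the whole numbers that return both listed values (two-sided Fisher's exact test where an observed or expected number was below 5, otherwise chi-square with Yates' correction). Clusters listed at 0 or 400 (35791 and 155 in replicate 1, 16261 and 327 in replicate 2) entered no result that uses reads, so those results leave out members listed at 0. The steps were tested on simulated data. Overlap meant at least 1 base on the same strand. Shares have 95% Wilson intervals, and no test across clusters was made.

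The named edges were, per side, up to 10 called in both replicates by the smaller log2 fold change and the 3 with the most IP reads in replicate 1 found in both. The 5 genes with the most edges called in both were to be named, but none had more than 1. Called members of 9 genes, and list genes called in both, were also to be named. List genes called in 1 replicate, genes with the most members, Mroh8 and Wdr26, and the comparison with RefSeq exons were chosen after the values were seen. The members and lists were chosen with earlier results of these data known. Alternatives covered thresholds, distance, exon bases, annotation, reads, overlap, window and each replicate alone. Python 3.11.15, NumPy 2.4.6, pandas 2.3.3 and SciPy 1.17.1 were used.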

Additional observations from a re-analysis of the deposited data

How the results depend on the processing

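No paired analysis was possible because the results come from no test, and each listed value already sets an IP against the SMInput of its own replicate. Of 94 alternative values, 51 stayed within the spread between replicates or, for counts, within 1.5 times, and 43 moved. The values of each replicate alone are among the 51, but with 2 replicates they lie within that spread by construction and show no stability. Values below are means of the 2 replicates, 5′ side first, except for members called in both replicates, which are counts from replicate 1 (5 and 4 as reported). Stricter thresholds of 3 left 2 and 1 called in both, a fold change threshold of 1 gave 8 on the 3′ side, and adjusted P left 3 on the 5′ side. Within 50 bases there were 1042.5 and 1602.5 members, with median log2 fold changes of 1.67 and 1.39, 35.6% and 48.0% crossing the edge, and 2 and 2 called in both. Within 200 bases there were 5377 and 5203.5 members, with medians of 1.89 and 1.81, 7.04% and 15.3% crossing, and 12 called in both on the 5′ side. Without any exon base the medians were 2.05 and 1.81, and with exons of all transcripts 1.81 on the 3′ side. With at least 10 IP reads, 20.9% and 13.4% were called, beside 24.7% and 27.3% of all clusters with as many reads in replicates 1 and 2, the medians were 1.07 and 0.98, 28.6% and 60.6% crossed, and 2 on the 3′ side were called in both. Without centres in RefSeq exons, chosen after seeing the data, 3 and 2 were called in both. Thresholds of 3 lowered the shares called to 0.808% and 0.616%, and adjusted P to 3.63% and 3.08%. Over all clusters of replicates 1 and 2 these settings gave 1.18% and 2.42%, and 3.24% and 10.4%. These moves are large, but the SD of the 2 replicates is about as large as the mean share, so they count among the values within it. With exons of all transcripts Dmrtb1 was no longer among the 5 called in both on the 5′ side, and Tacc1 was. The 3′ side then had 6, with Catsperg2 and Lgals1 added. The 12 motif shares rose with 100-base windows, which hold more positions. Each replicate alone gave 1782 to 3289 and 1989 to 3709 members, shares called of 2.16% to 10.9% and 1.91% to 9.15%, medians of 1.76 to 1.85 and 1.57 to 1.76, and crossing shares from 15.8% down to 13.96% and from 24.2% to 31.0%. Most members hold under 10 IP reads, which limits what a single cluster can show.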

Other observations

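Clusters whose nearest edge was a transcript start or end were called at 3.67% in replicate 1 (13 of 354) and 13.3% in replicate 2 (28 of 210), near the shares of all clusters. Of these, 2 from replicate 1 and 4 from replicate 2 met a called cluster of the other replicate. At 2 places both clusters had a transcript start or end as their nearest edge, in Pom121l2 and Tmem267, named after their values were seen. In Pom121l2, chr13:21984493-21984529 held 47 IP and 5 SMInput reads and chr13:21984497-21984526 held 34 and 7, for log2 fold changes of 3.99 and 4.13. In Tmem267, chr13:119488685-119488862 held 48 and 20 reads and chr13:119488792-119488886 held 28 and 25, for 2.03 and 2.01.

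After the TG repeats of Mroh4 and Rangap1 were seen, TGTGTGTGTG was counted in the 50-base windows on the strand of the cluster. On the 5′ side it was in 3 of 71 and 12 of 195 called members (4.23% and 6.15%) and in 0.901% and 2.08% of those not called. The 3′ side had it in 2 of 71 and 7 of 182 called members (2.82% and 3.85%), against 1.02% and 1.55%. Deep introns gave 3.84% and 5.72% of called clusters, against 2676 of 178817 (replicate 1) and 2.26% (replicate 2) of those not called. The higher share among called clusters was thus seen in deep introns as well, and since the repeat was chosen from called clusters it is a description only.

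Some members with many reads were called in 1 replicate, again named after their values were seen. In replicate 1, Zbtb32 had 27 IP and 11 SMInput reads 80 bases into its first intron, with a log2 fold change of 2.06, and Taf9, a subunit of TFIID, had 25 and 8 reads at 35 bases, with 2.41. In replicate 2, Vit had 28 and 21 reads at a 3′ splice site that the cluster crosses, with 2.26. These edges had no pair of overlapping called clusters.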
